A study of Mus musculus with 7 samples.

Results

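Aquaporins are channels through which water crosses cell membranes along an osmotic gradient, and some of them also carry glycerol. The 4 members described here, Aqp1, Aqp3, Aqp4 and Aqp5, were chosen by gene symbol as the aquaporins known from lung epithelium or its surroundings, and all 4 were found among the 21121 genes listed for each library. They were followed over lung development in epithelial cells of C57BL/6 mice at 5 stages. These were embryonic day 13.5 (E13.5, 1 library), E15.5 (1 library), E18.5 (2 libraries), postnatal day 14 (P14, 1 library) and P56 (2 libraries). At every stage live Epcam-positive cells were sorted after removal of cells with CD31, CD45, CD146 or Ter119, surface markers of endothelial, white blood, vascular and red cells. The labels name no allele or treatment, and they do not say how many animals gave a library or whether the libraries of a stage came from different litters or sorts. Transcripts were counted by 3'SAGE-seq, which reads a tag from the 3' part of each polyadenylated RNA.

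The libraries held 2559927 to 3895740 reads, with 15268 to 16104 genes detected in each. Values are given as scaled reads, the tag count of a gene divided by 1 factor per library, so that 1 read was worth 0.236 to 0.385 units. Genes of the sort followed the label. Epcam lay between 55.8 and 213 scaled reads and Nkx2-1, the transcription factor of the lung epithelial lineage, between 502 and 1969, while Pecam1 (CD31) and Ptprc (CD45) had at most 4 reads in any library and Mcam (CD146) lay between 0 and 6.14 scaled reads. The sort takes all epithelial cell types together, so fewer cells of a type and less RNA per cell cannot be told apart in any value below. A gene with no good tag site yields few reads whatever its level, so ratios between genes and shares of a sum are given only to follow how they change from library to library, and not to say which transcript is more abundant.

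Before birth the lung epithelium secretes chloride, and water follows into the lumen and keeps the airspaces filled with liquid. Around birth it turns to absorbing sodium through the epithelial sodium channel ENaC and the sodium pump, and water follows outward. Aqp5 lies on the apical membrane of flat type 1 alveolar cells, Aqp1 is best known from capillary endothelium and red blood cells, Aqp3 is a water and glycerol channel of basal cells of the airway, and Aqp4 lies on the basolateral membrane of airway cells.

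Aqp5 was high from E18.5 onward, with an E18.5 mean 231 times that of E13.5 and E15.5. Aqp1 was high at E18.5, intermediate at P14 and without a single read at P56. Aqp3 and Aqp4 stayed at 50 reads or fewer in every library. All 4 passed the filter on low values and entered the fit of 12964 genes, in which limma-trend compared log2(value + 1) between stages with Benjamini-Hochberg adjustment and a threshold of 0.05. In E18.5 against E13.5 and E15.5, 3 of the 4 were called higher (Aqp5, Aqp1 and Aqp3) and 0 lower, against 15.8% of all genes called higher and 29.1% called in either direction (30.8% with edgeR's quasi-likelihood test on the recovered reads, which called the same 3). In P56 against E18.5, 1 of 4 was called (Aqp1, lower), where 14.2% of all genes were called and 6.15% were lower (16.2% called with edgeR). In P56 against P14 it was again 1 of 4 (Aqp1, lower), with a background of 0.818% called and 0.694% lower (2.06% called with edgeR). A count of 1 among 4 says nothing about the set, and it is the single gene that carries these comparisons.

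In P14 against E18.5, limma called 0 of the 4 members, where 3.11% of all genes were called. Aqp1 and Aqp5 had an unadjusted p under 0.05 there, and edgeR called 1 member, Aqp1, with 5.29% of all genes called. A test of any difference among the 5 stages called Aqp5 (limma adjusted p = 2.46e-06) and Aqp1 (adjusted p = 0.000138) and neither Aqp3 (adjusted p = 0.116) nor Aqp4 (adjusted p = 0.258), with 30.3% of all genes called. EdgeR also called Aqp3 there (adjusted p = 0.0142), with 36.7% of all genes called. The p-values measure only the spread between these samples, and that spread rests on the 2 pairs of E18.5 and P56 libraries. Without any 1 of these 4 libraries limma had 1 residual degree of freedom and called 0 genes in each comparison, although 646 to 4706 genes had an unadjusted p under 0.05. With edgeR, each of these 4 fits still called Aqp1, Aqp3 and Aqp5 in E18.5 against the early stages and Aqp1 in P56 against E18.5 and against P14.

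**Figure D1:**
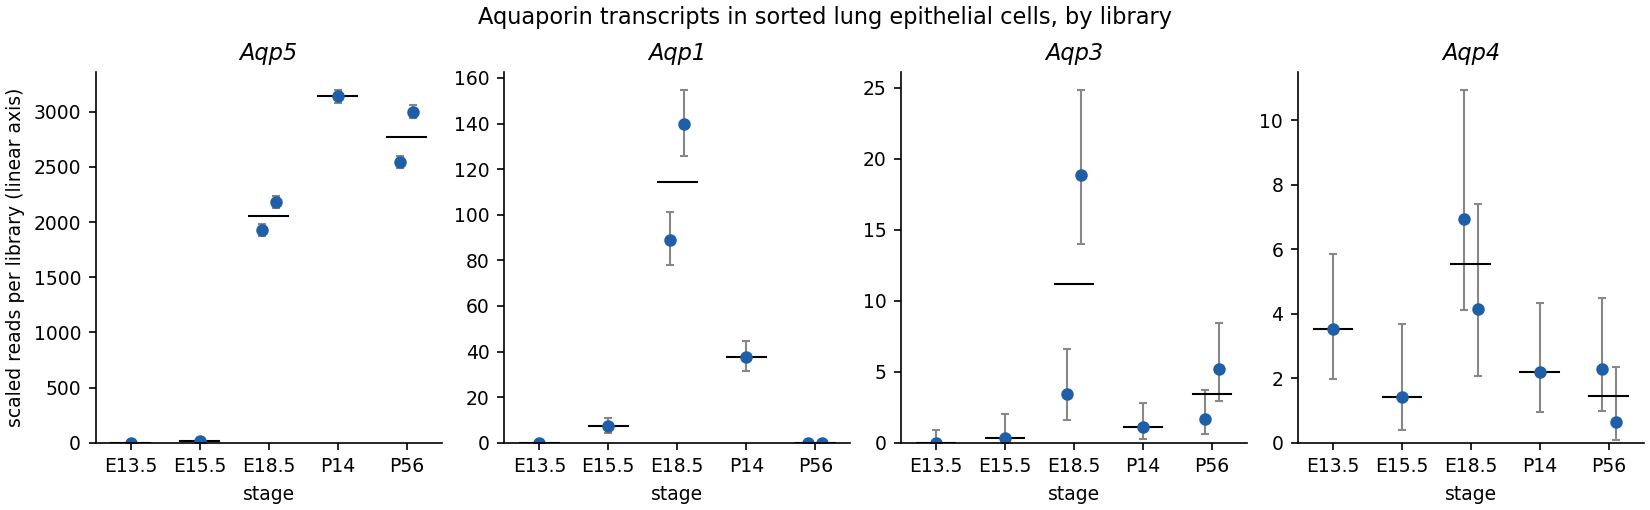
Scaled reads (linear axis, different for each gene) of Aqp5, Aqp1, Aqp3 and Aqp4 in each of the 7 libraries by stage; points are libraries, grey bars are 95% intervals of counting error and black lines are stage means. Aqp5 lies at 1931 or above from E18.5 onward, whereas Aqp1 has its highest values at E18.5 and none at P56.

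The start regions of the 3 members called higher at E18.5 are shown because these genes rose together at that step. The sequences are from RefSeq (GRCm38.p6) and run 5′ to 3′ on the strand of the gene; all 3 members matched the table by symbol. For Aqp1 the 250 bases before the start (chr6:55336049-55336298, plus strand) are given, with CTTGAG, the reverse form of the core CTCAAG recognised by NKX2-1, and the GC box GGGCGG in capitals. For Aqp3 the 250 bases before the start (chr4:41098184-41098433, minus strand) are given, with the GC box in its reverse form CCGCCC and the TATA box TATAAA in capitals. For Aqp5 a site of 30 bases (chr15:99590929-99590958, plus strand) is given, with the E-box CACGTG and a GC box in capitals. That site lies before the RefSeq start but inside the bounds that GENCODE vM21 gives the gene.
Aqp1: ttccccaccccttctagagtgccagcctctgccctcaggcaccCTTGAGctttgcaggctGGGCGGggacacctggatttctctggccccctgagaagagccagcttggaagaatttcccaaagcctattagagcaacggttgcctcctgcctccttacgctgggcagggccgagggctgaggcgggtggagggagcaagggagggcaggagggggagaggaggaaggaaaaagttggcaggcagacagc
Aqp3: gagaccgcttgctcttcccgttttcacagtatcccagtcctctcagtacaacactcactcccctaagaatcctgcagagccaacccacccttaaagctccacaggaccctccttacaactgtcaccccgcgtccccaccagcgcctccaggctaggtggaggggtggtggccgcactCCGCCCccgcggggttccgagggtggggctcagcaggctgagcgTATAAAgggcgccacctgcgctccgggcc
Aqp5: tgccgcgtgggtCACGTGgcccGGGCGGgt

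Counted back from the RefSeq start, the Aqp1 matches began at -207 (NKX2-1 core) and -190 (GC box), and those of Aqp3 at -73 (GC box) and -29 (TATA box). Those of Aqp5 began at -87 (E-box), -77 (GC box) and, outside the printed site, -34 (a further GC box). The motifs were searched on both strands, and these matches did not overlap. The GC box was the one motif found in all 3 windows, and 32.7% of 32851 RefSeq start windows of the same length held it. The NKX2-1 core stood in 13.3% of those windows, TATAAA in 12.4% and CACGTG in 6.02%. CCAAT (33.9% of windows), the TEAD core GGAATG (12.6%) and the hormone half-site TGTTCT (16.1%) were not among the letters of any of the 3 windows. The windows differed in composition. The Aqp5 window had 78.4% G and C and 38 CpG pairs, the Aqp3 window 64% and 14, and the Aqp1 window 62% and 5, against a median of 52.4% G and C over all windows. A match describes letters only, and binding at these places was not measured.

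Aqp5 (chr15:99590782-99594829, plus strand, protein-coding, GRCm38 with GENCODE vM21) had 2.36 scaled reads at E13.5 (10 reads) and 15.4 at E15.5 (43 reads). It had 1931 and 2181 scaled reads in the E18.5 libraries, 3139.5 at P14, and 2545 and 3000.1 in the P56 libraries. All 5 later libraries thus lay far above both early ones, with no overlap. At E18.5 the mean was 2056 ± 177 (SD, n = 2), against 8.90 over the early libraries. E18.5 minus the mean log2 value of E13.5 and E15.5 gave a log2 change of 8.11 ± 0.183 (SE, limma adjusted p = 1.65e-06, edgeR adjusted p = 8.52e-09).

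The early libraries already differed from each other in Aqp5. The ratio of E15.5 to E13.5 was 6.53, with a 95% interval of counting error from 3.23 to 14.6, and with 1 library for each stage it has no replicate check. E18.5 exceeded E15.5 by a ratio of 133 (98.9 to 184, counting error only). After E18.5 the differences in Aqp5 were small. P14 was 1.53 times E18.5 (log2 change 0.61 ± 0.224, limma adjusted p = 0.205), P56 was 1.35 times E18.5 (log2 change 0.43 ± 0.183, adjusted p = 0.172), and P56 was 0.883 times P14 (log2 change -0.18, adjusted p = 0.879). Ordered by level, Aqp5 ran E13.5, E15.5, E18.5, P56, P14, and no difference among the last 3 stages passed the threshold after adjustment. The P14 and P56 libraries nevertheless all lay above both E18.5 libraries, and P14 against E18.5 had an unadjusted p under 0.05. Its replicates were close to each other, with a log2 difference of 0.18 at E18.5 and 0.24 at P56, below the medians of 0.41 and 0.33 over all tested genes.

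**Figure D2:**
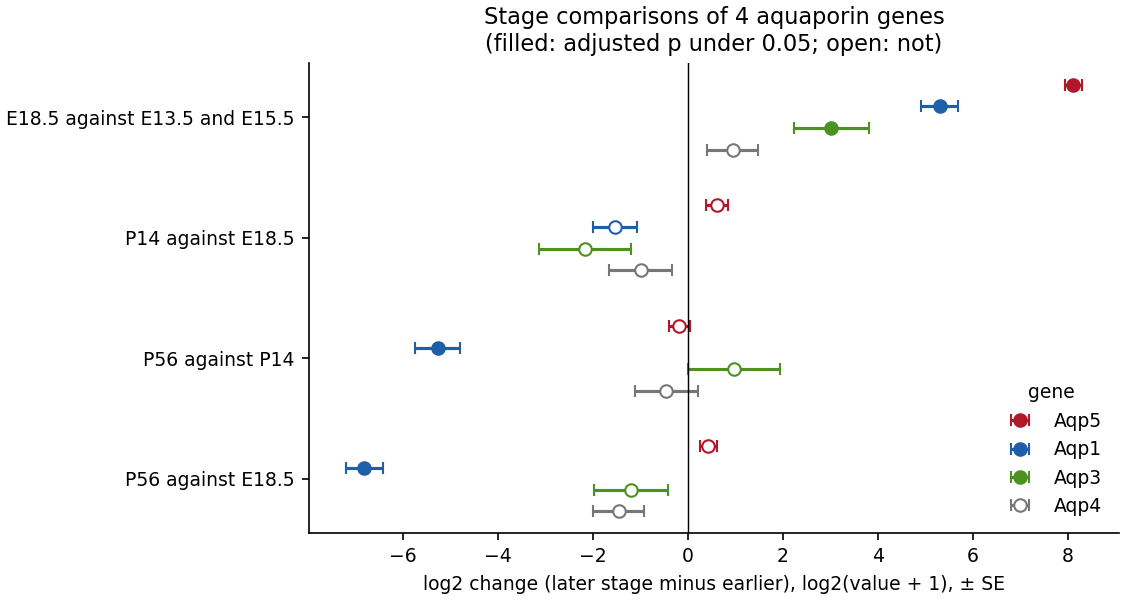
Log2 changes of the 4 aquaporins on the log2(value + 1) scale, later stage minus earlier, in 4 stage comparisons; points are limma estimates, bars are ± 1 SE, filled points have an adjusted p under 0.05 and open points do not. The change of Aqp5 at E18.5 (8.11) and the change of Aqp1 at P56 (-6.81 against E18.5) lie farthest from 0.

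Aqp5 was set beside 20 markers of type 1 cells, which form the thin gas-exchange surface, and 18 markers of type 2 cells, which make surfactant. Neither list holds Aqp5. In E18.5 against the early stages Aqp5, at a log2 change of 8.11, stood above every one of the 20 type 1 markers, of which 19 rose and 1 fell (median log2 change 3.37), and above all 18 type 2 markers, of which 17 rose and 1 fell (median 4.26). The median over all tested genes was 0.03, and 15.8% of them rose and 13.4% fell. In P14 against E18.5 Aqp5 (0.61) lay above 17 of the 20 type 1 markers (median 0.12; 1 rose, 2 fell) and below 16 of the 18 type 2 markers (median 1.40; 12 rose). Of all tested genes 1.87% rose and 1.24% fell there.

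From P14 to P56 the medians of the alveolar lists differed again, and Aqp5 once more lay between them. In P56 against P14 Aqp5 had a log2 change of -0.18, above 19 of 20 type 1 markers (median -2.28; 12 fell, 0 rose) and below 17 of 18 type 2 markers (median 0.37; 1 rose). Of all tested genes 0.123% rose and 0.694% fell there. In P56 against E18.5 Aqp5, at 0.43, was above all 20 type 1 markers, of which 17 fell and 0 rose (median -2.44), and below 17 of 18 type 2 markers, of which 16 rose and 0 fell (median 2.01). The median over all tested genes was 0.06, and 8.07% of them rose and 6.15% fell. These lists share libraries with each other and with Aqp5, and the difference between Aqp5 and the markers was not tested.

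**Figure D3:**
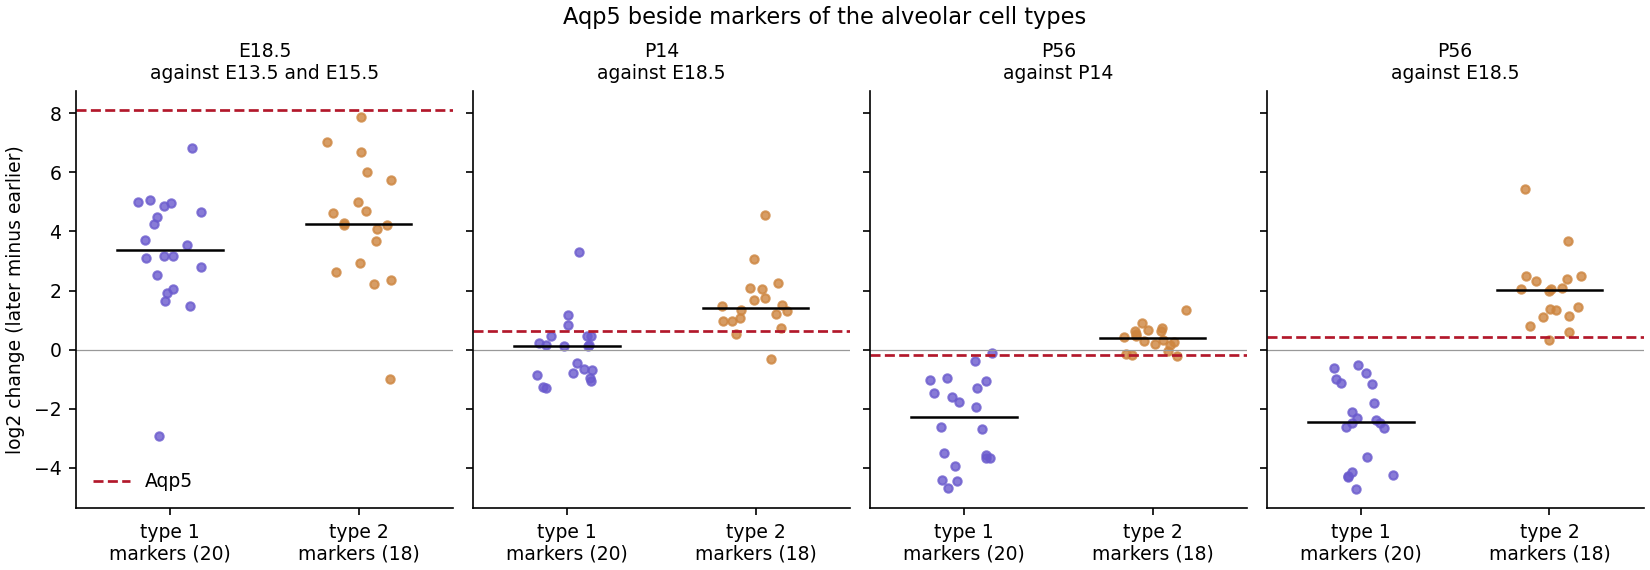
Log2 changes of 20 type 1 markers (purple) and 18 type 2 markers (orange) in 4 stage comparisons, later stage minus earlier; points are genes, black lines are list medians and the red dashed line is Aqp5. In P56 against E18.5 the Aqp5 line (0.43) runs above all 20 type 1 points and below 17 of the 18 type 2 points.

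The markers with the highest mean values are given by library. The ratio of Aqp5 to Clic5, an intracellular channel protein abundant in type 1 cells, was 0.0464 at E15.5. It was 0.703 and 0.706 in the E18.5 libraries, then 2.10 at P14, and it reached 11.2 and 12.6 at P56. At E13.5 that ratio was 2.50, from 10 reads of Aqp5 and few of Clic5 (0.945 scaled reads). Clic5 itself had 227 and 238 scaled reads at P56, against 2745 and 3089 at E18.5. Gprc5a, a receptor of the same list, had 662 and 641 at P56, against 2924 and 3697 at E18.5. Cldn18, the tight-junction claudin of the lung, had 8555 and 9231 at P56, against 11888 and 13486 at E18.5. All the P56 values of these 3 markers lay below those of E18.5, while Aqp5 had 2545 and 3000.1 at P56, above both E18.5 libraries.

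Among type 2 genes Aqp5 was compared with Sftpc and Sftpb, which encode surfactant proteins, and with Hc, which encodes complement C5. Sftpc had 19987 and 21448 scaled reads at P56, against 3953 and 3365 at E18.5, and Sftpb had 16118 and 17867 at P56, against 4067 and 4163 at E18.5. The ratio of Aqp5 to Hc was 0.909 at E13.5, from 10 reads of Aqp5 and 11 of Hc, 0.935 at E15.5, and 1.10 and 1.09 in the E18.5 libraries. Over the same libraries the ratio of Aqp5 to Sftpc was 0.08, 0.0122, 0.488 and 0.648, and that of Aqp5 to Sftpb 0.0568, 0.0257, 0.475 and 0.524. After birth the ratio to Hc was lower, with 0.348 in the P14 library and 0.336 and 0.373 in the P56 libraries. Expressed as a share of the summed type 2 value, Aqp5 came to 12.3% and 13.6% in the E18.5 libraries, to 5.90% in the P14 library, and to 3.70% and 3.92% in the P56 libraries. Its share of the summed type 1 value moved the other way, with 8.98% and 8.93% in the E18.5 libraries, 13.3% in the P14 library, and 24.5% and 27.2% in the P56 libraries. Cldn18 has the largest value in that type 1 sum. Without it Aqp5 equalled 20.1% and 19.9% of the sum in the E18.5 libraries, 49.8% in the P14 library, and 140.4% and 166% in the P56 libraries.

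Airway markers also moved. Of 7 tested club cell markers 5 rose and 1 fell in P56 against E18.5 (median log2 change 1.60), and of 9 tested ciliated cell markers 1 rose and 0 fell (median 0.57). Of all tested genes 8.07% rose and 6.15% fell there. The part of these airway markers in the Aqp5 values was not tested.

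Aqp1 (chr6:55336432-55348555, plus strand, protein-coding) had 0 reads at E13.5 and 7.18 scaled reads at E15.5 (20 reads). It had 88.9 and 139.8 scaled reads in the E18.5 libraries (231 and 371 reads), 37.7 at P14 (137 reads), and 0 reads in both P56 libraries. The E18.5 values lay above those of all other stages, and the E18.5 replicates differed by 0.65 on the log2 scale. The P56 replicates differed by 0 because both had 0 reads. That difference says little about spread, yet it enters the SE and p of every limma comparison of Aqp1. At E18.5 the mean was 114 ± 36.0 (SD, n = 2), against 3.59 over the early libraries. E18.5 minus the mean log2 value of E13.5 and E15.5 gave a log2 change of 5.30 ± 0.383 (SE, limma adjusted p = 0.000159, edgeR adjusted p = 2.57e-06). The observed E15.5 value was 10.1 times a floor of 3 reads for E13.5. Its own interval of counting error ran from 4.38 to 11.1 scaled reads, and neither stage has a replicate. E18.5 exceeded E15.5 by a ratio of 15.9 (10.3 to 26.3, counting error only).

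P56 lay at least 252-fold below E18.5 in Aqp1, with a floor of 3 reads over both P56 libraries (log2 change -6.81 ± 0.383, which the added 1 holds down; limma adjusted p = 0.000115; edgeR adjusted p = 1.43e-06). It lay at least 82.9-fold below P14 (log2 change -5.27 ± 0.470, limma adjusted p = 0.00438; edgeR adjusted p = 8.73e-05). Without limma's robust variance estimate this second call was lost (adjusted p = 0.111; 1.92e-29 to 0.830 over all alternatives). P14 stood between, at 0.330 times E18.5 (0.271 to 0.396, counting error only). That difference was not called by limma (log2 change -1.54 ± 0.470, adjusted p = 0.140) and was called by edgeR (log2 change -1.68, adjusted p = 0.0343; 5.61e-05 to 0.447 over all alternatives). Ordered by level, Aqp1 ran P56 and E13.5 (both at 0 reads), E15.5, P14, E18.5.

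Because Aqp1 is known from endothelium and red cells, the markers of the cells that the sort should remove are given beside it. Of 12 endothelial markers, 5 and 3 had reads in the E18.5 libraries. Cdh5, Emcn, Plvap, Cldn5, Tie1, Tek and Sox17 had 0 reads in both, and Pecam1 and Vwf each had 1 read in replicate 1 and 0 in replicate 2. Kdr, a receptor for vascular growth factor, had 9 and 27 reads there, and Egfl7 had 12 and 4. The summed endothelial value was 47.0 at E13.5, 47.4 at E15.5, 102 and 113 in the E18.5 libraries, 223 in the P14 library, and 206 and 249.7 in the P56 libraries. From E18.5 onward most of it was Esam, a junction protein chosen after its values were seen. Esam had 188 and 241 scaled reads at P56, where Aqp1 had none, against 92.8 and 101 at E18.5. Without Esam the sum was 8.86 and 11.7 in the E18.5 libraries, 9.35 in the P14 library, and 18.8 and 8.42 in the P56 libraries. The part of endothelial transcripts in the Aqp1 values was not tested.

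Red cell transcripts gave a different order of libraries from Aqp1. The 8 erythroid genes together had 56 and 110 reads at P56, where Aqp1 had 0, and 0 and 130 reads in the 2 E18.5 libraries. E18.5 replicate 1, with 0 erythroid reads, had 231 reads of Aqp1. Of 7 mesothelial markers 2 had reads in each E18.5 library, with summed values of 554 and 735. Msln made up 549 and 733 of these, whereas Wt1 and Upk3b, which define mesothelium, were at 0. In the other stages the mesothelial sum was 2.36 at E13.5, 29.4 at E15.5, 28.3 at P14, and 29.9 and 6.15 at P56. Neither red cell nor mesothelial transcripts were tested for their part in the Aqp1 values.

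Mesenchymal transcripts followed Aqp1 in part. The 11 mesenchymal markers summed to 43.2 scaled reads at E13.5 and 209.6 at E15.5, 170.2 and 176 in the E18.5 libraries, 141 in the P14 library, and 96.8 and 57.3 in the P56 libraries, with 8 and 9 of the 11 detected at E18.5. The sum was highest at E15.5, where Aqp1 had 7.18 scaled reads, and remained above 0 at P56, where Aqp1 had none. Of 7 tested, 6 fell and 1 rose in P56 against E18.5, where 6.15% of all genes fell and 8.07% rose. Col1a1, a collagen chain, had 1.14 and 0.648 at P56, against 23.1 and 41.4 at E18.5. Pdgfrb had 0 reads in both E18.5 libraries and Pdgfra 1 read in each. The part of mesenchymal transcripts in the Aqp1 values was not tested.

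**Figure D4:**
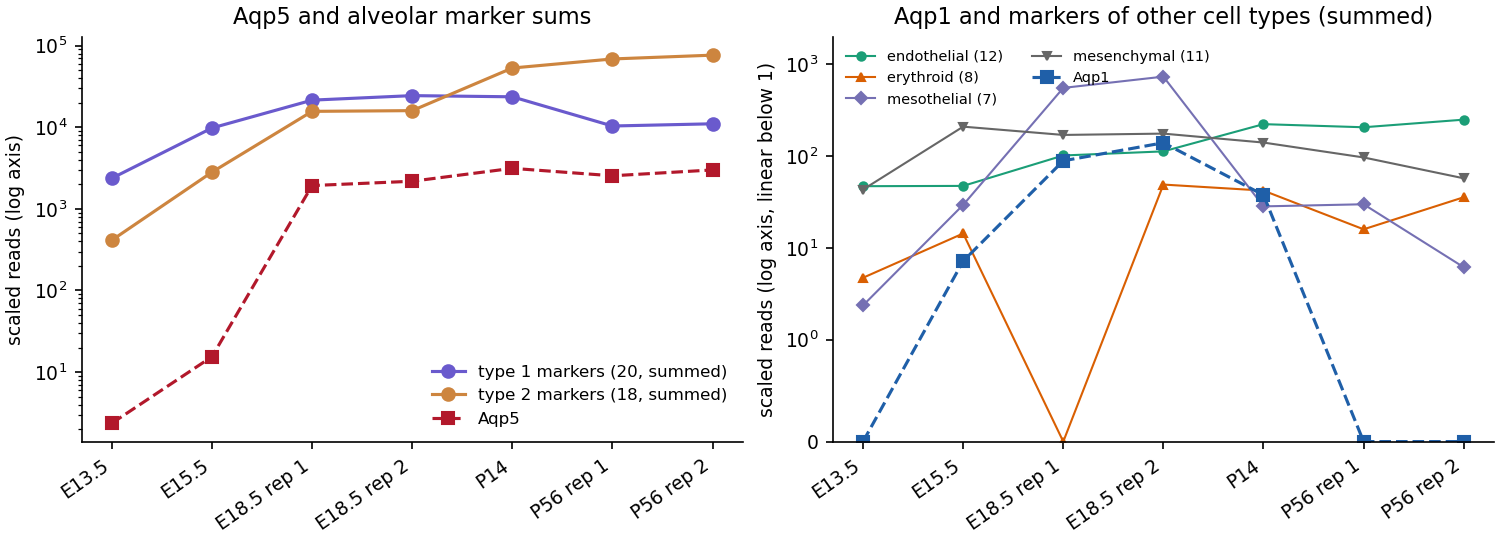
Left, scaled reads (log axis) of Aqp5 with the summed type 1 and type 2 markers in each library; right, Aqp1 with summed endothelial, erythroid, mesothelial and mesenchymal markers (log axis, linear below 1), where lines only join libraries in stage order. Aqp1 is at 0 in both P56 libraries, where the endothelial sum stands at 206 and 249.7 (18.8 and 8.42 without Esam). E18.5 replicate 1 has Aqp1 at 88.9 with the erythroid sum at 0, and replicate 2 has 139.8 and 49.0. The part of these cell types in the Aqp1 values was not tested.

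Aqp3 (chr4:41092722-41098183, minus strand, protein-coding) was scarce. It had 0 reads at E13.5 and 1 read at E15.5, 9 and 50 reads in the E18.5 libraries (3.47 and 18.8 scaled reads), 4 reads at P14 (1.10), and 6 and 16 reads at P56 (1.71 and 5.18). Both E18.5 libraries lay above both early ones, but E18.5 replicate 1 lay between the P56 libraries, so those stages overlapped. The replicates differed by 2.15 on the log2 scale at E18.5, more than in 98.0% of tested genes, and by 1.19 at P56, more than in 93.7%. In E18.5 against the early stages, with 59 reads against 1, the log2 change was 3.01 ± 0.788 (SE; limma adjusted p = 0.0267; edgeR adjusted p = 0.00301). The E18.5 to E15.5 ratio was 31.1, with a counting interval from 5.41 to 1257. This call rests on few reads and on the setting. It was lost with a pseudocount of 5 (log2 change 1.46, adjusted p = 0.0624), with no filter on low values (adjusted p = 0.235) and without robust variance estimates (adjusted p = 0.0859).

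After E18.5 no comparison of Aqp3 was called by limma. P56 was 0.309 times E18.5 (log2 change -1.20 ± 0.788, adjusted p = 0.369) and P14 was 0.0987 times E18.5 (log2 change -2.16 ± 0.965, adjusted p = 0.289). P56 was 3.13 times P14 (1.03 to 12.1, counting error only; log2 change 0.96, adjusted p = 0.838). Without E18.5 replicate 1, edgeR called both P56 (log2 change -2.53, adjusted p = 0.00183; up to 0.982 over all alternatives) and P14 (log2 change -4.12, adjusted p = 0.000524; up to 0.634) lower than E18.5. Without E18.5 replicate 2, the P56 change of Aqp3 was -0.11 with edgeR and -0.13 with limma. Of the basal cell markers, Trp63 had 0 reads in both E18.5 libraries and Krt5 had 0 and 1, while Krt15 had 20 and 29. The 6 basal genes summed to 1.42 scaled reads at E13.5 and 5.02 at E15.5, 9.63 and 12.1 in the E18.5 libraries, 0.550 in the P14 library, and 5.12 and 4.21 in the P56 libraries, with 3 of 6 detected in each E18.5 library. Their part in the Aqp3 values was not tested.

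Aqp4 was detected in all 7 libraries with 2 to 18 reads. It had 15 reads at E13.5 (3.54 scaled reads), 4 at E15.5 (1.44), 18 and 11 at E18.5 (6.93 and 4.14), 8 at P14 (2.2), and 8 and 2 at P56 (2.28 and 0.648). The E18.5 values were the highest and did not overlap those of other stages. In its interval of counting error, however, the lower E18.5 library overlapped every library of the other stages. The higher E18.5 library overlapped E13.5, P14 and P56 replicate 1 in the same way. No stage comparison of Aqp4 was called. P56 was 0.264 times E18.5 (log2 change -1.46 ± 0.542; limma adjusted p = 0.123, with the unadjusted p under 0.05; edgeR adjusted p = 0.144), and E18.5 was 2.22 times the early mean (log2 change 0.94 ± 0.542, adjusted p = 0.230). P14 was 0.397 times E18.5 (adjusted p = 0.480). The intervals of counting error lay below 1 both for P56 (0.119 to 0.579) and for P14 (0.157 to 0.894), each against E18.5, and above 1 for E18.5 against E15.5 (1.35 to 15.1). E15.5 was 0.405 times E13.5, with a counting interval from 0.0978 to 1.27 that includes 1. Between P56 and P14 the log2 change was -0.46 (adjusted p = 0.905), and without P56 replicate 2 it turned to 0.034. A missing call does not show that the level of Aqp4 was the same between stages. The 12 ciliated markers summed to 190.0 scaled reads at E13.5 and 423 at E15.5, 948 and 1040.2 in the E18.5 libraries, 2364 in the P14 library, and 1809 and 2069 in the P56 libraries. Tppp3 made up most of this sum, and without it the other 11 summed to 18.2 at E13.5 and 116 at E15.5, then 155 and 173 in the E18.5 libraries, 49.5 in the P14 library, and 213.7 and 219.9 in the P56 libraries. Their part in the Aqp4 values was not tested.

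Of 8 other aquaporin genes looked up, 4 were listed and none passed the filter on low values. Aqp2, the vasopressin-regulated water channel of the kidney, had 2 and 1 reads in the P56 libraries and 0 in the other 5. Aqp6, an intracellular kidney channel, had 4 reads at P14 and 1 in P56 replicate 2. Aqp8 had 4 reads at E13.5, and Aqp11, an intracellular aquaporin, had 1 read at E13.5 and 4 at P14. All other values of these genes were 0. Mip, Aqp7, Aqp9 and Aqp12 were not analysed here.

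Aqp2 and Aqp6 lie on either side of Aqp5 in the genome. Aqp2 (chr15:99579055-99584547) ends 6234 bases before Aqp5 and Aqp6 (chr15:99601400-99605477) begins 6570 bases after it, all on the plus strand. Further along the chromosome lie Racgap1 (chr15:99620496-99651656, minus strand), which acts in cell division, and on the far side Faim2 (chr15:99497012-99528165, minus strand). Racgap1 had 18.9 scaled reads at E13.5 and 26.9 at E15.5, 0.385 and 1.51 in the E18.5 libraries, 0.275 in the P14 library, and 0.854 and 0.972 in the P56 libraries. It was thus high where Aqp5 was low and low where Aqp5 was high. Faim2 had 1 read in P56 replicate 1 and none elsewhere. Within the cluster, Aqp5 alone had more than 4 reads in any library. These neighbours were named by symbol and their positions looked up, with no search for other genes in between.

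The genes whose profiles over the 7 libraries were most like that of each member were found by the root mean square difference of log2(value + 1), each gene centred on its mean, among genes with a stage mean of at least 50. For Aqp5 these were Hc (0.760), Chil1 (0.780), Spink5 (0.835), Sftpd (0.839) and Slc34a2 (0.851), and 6 of 3390 genes lay within a difference of 1. Sftpd encodes a surfactant protein, Slc34a2 the phosphate transporter of type 2 cells, Chil1 a chitinase-like protein and Spink5 a protease inhibitor. Hc, Sftpd and Slc34a2 are in the type 2 list, and none of the 5 is in the type 1 list. Spink5 was the one of the 5 with fewer scaled reads at P56 (mean 143) than at E18.5 (mean 148). The others rose by larger ratios than Aqp5 between these stages. Aqp5 went from a mean of 2056 at E18.5 to 2772 at P56. Hc went from 1879 to 7804, Chil1 from 130 to 483, Sftpd from 354 to 1994 and Slc34a2 from 521 to 1119.5.

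For Aqp1 the nearest profiles were Cav1 (0.870), Eln (0.932), Scnn1g (1.03), Fbln5 (1.07) and Lox (1.11), and 2 of 3390 genes lay within 1. Cav1 encodes the coat protein of caveolae and is a type 1 marker that endothelium also expresses. Scnn1g encodes the gamma subunit of ENaC. Eln, Fbln5 and Lox encode elastin, a protein that assembles elastic fibres and the enzyme that crosslinks them. Fbln5 had a mean of 129 scaled reads at E13.5, 504 at E15.5, 2061 at E18.5, 2695 at P14 and 91.7 at P56. Lox had 8.03 at E13.5, 166 at E15.5, 228 at E18.5, 207 at P14 and 4.78 at P56. All 5 were high at E18.5 and P14 and low at P56. Aqp1 was also low at P56, but its P14 value (37.7) was 0.330 times its E18.5 mean (114). Eln (49.8 at E18.5 and 53.9 at P14) and Fbln5 were instead higher at P14. At E15.5 Aqp1 had 7.18 scaled reads, where Lox had 166. Eln is also in the mesenchymal list. Of the 20 type 1 markers, 17 fell and 0 rose in P56 against E18.5, where 6.15% of all genes fell and 8.07% rose. In P14 against E18.5, 2 fell and 1 rose, where 1.24% of all genes fell and 1.87% rose. The part of type 1 cells in the Aqp1 values was not tested.

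**Figure D5:**
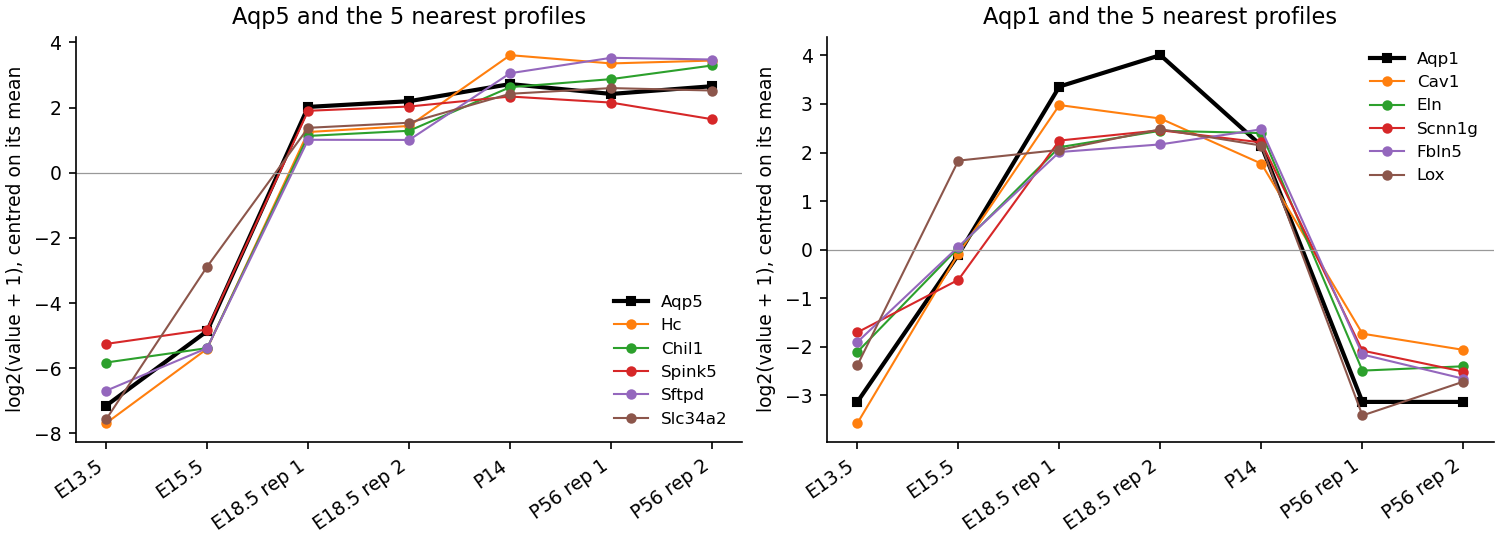
Profiles of Aqp5 (left) and Aqp1 (right), in black, with the 5 genes nearest to each, as log2(value + 1) centred on the mean of the 7 libraries; lines only join libraries in stage order. The Aqp5 group stays high through P56, whereas every gene of the Aqp1 group is low in both P56 libraries.

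For Aqp3 the nearest were Lyst (0.588), Prr18 (0.618), Sfn (0.664), Atxn1 (0.689) and Atf3 (0.734), with 186 of 3391 genes within 1. For Aqp4 they were Usp24 (0.292), Cmtm4, Tuft1, Slc7a5 and Zfp516 (0.330), with 1995 of 3391 genes within 1. The profile of Aqp4 is nearly flat, so likeness to it distinguishes few genes.

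Water moves with the ions that the epithelium transports, and 23 genes of lung fluid and ion transport were listed, of which 21 were tested. In E18.5 against the early stages 9 of the 21 rose and 0 fell (median log2 change 0.92, against 0.03 over all tested genes, of which 15.8% rose). Scnn1a, the alpha subunit of ENaC, had 1875 and 2260.2 scaled reads at E18.5, against 168 at E15.5 and 12.1 at E13.5 (log2 change 5.45, limma adjusted p = 1.76e-05). Atp1b1, a beta subunit of the sodium pump, rose by 3.18 on the log2 scale (adjusted p = 8.29e-05), Nedd4l, a ubiquitin ligase that removes ENaC from the membrane, by 2.74 (adjusted p = 0.000154), and Slc26a9, a chloride transporter, by 2.42 (adjusted p = 0.000301). These genes were called higher in the same comparison as Aqp5 and Aqp1, and Aqp5 had a larger log2 change than all 21. That comparison pools E13.5 with E15.5. Each of the named genes was already higher at E15.5 than at E13.5, without a replicate of either stage. From E13.5 through E15.5 to the E18.5 mean, Atp1b1 went from 379 to 2937 and 9695. In the same order Nedd4l went from 15.4 to 94.4 and 263, and Slc26a9 from 12.8 to 90.4 and 189. Aqp5 went from 2.36 to 15.4 and 2056.

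In P56 against E18.5 the ion transport list went both ways, with 4 higher and 6 lower of 21 (median -0.37, against 0.06 over all tested genes, of which 8.07% rose and 6.15% fell). Scnn1g had 3.41 and 2.27 scaled reads at P56, against 87.4 and 101 at E18.5 (log2 change -4.65, limma adjusted p = 0.000187). Ano1, a calcium-activated chloride channel, had 9.96 and 11.7 at P56, against 111 and 76.9 at E18.5 (log2 change -2.99, adjusted p = 0.000912). Nedd4l fell by 1.61 (adjusted p = 0.00259), and Slc26a4, the anion exchanger pendrin, had 20.2 and 27.2 at P56 and 0 reads in both E18.5 libraries (adjusted p = 0.00114). Scnn1g and Ano1 thus fell at the step where Aqp1 fell and Aqp5 was not called. In P14 against E18.5 0 rose and 1 fell by limma, Nedd4l (log2 change -1.43, adjusted p = 0.0282), where 1.87% of all genes rose and 1.24% fell. In P56 against P14 0 rose and 2 fell, where 0.123% of all genes rose and 0.694% fell. The 2 were Scnn1g (log2 change -4.50, limma adjusted p = 0.00363) and Fxyd3, a regulator of the sodium pump (log2 change -2.75, adjusted p = 0.0228).

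Of 10 genes of the cell's response to osmotic stress, all tested, 3 rose and 0 fell in E18.5 against the early stages, where 15.8% of all genes rose (median log2 change 0.52, against 0.03 over all tested genes). Among them were Wnk1, a kinase that regulates ion cotransport, at a log2 change of 1.85 (limma adjusted p = 0.00153) and Nfat5, the transcription factor of the osmotic response, at 1.22 (adjusted p = 0.0168). In P56 against E18.5 2 rose and 1 fell, where 8.07% of all genes rose and 6.15% fell (median 0.13, against 0.06). Wnk1 had 264 and 176 scaled reads at P56, against 638 and 734 at E18.5 (log2 change -1.66, adjusted p = 0.00478), and Slc6a6, the taurine transporter, had 294 and 276 at P56, against 145 and 141 at E18.5 (log2 change 0.99, adjusted p = 0.0127). In P14 against E18.5 0 rose and Wnk1 fell (log2 change -1.42, adjusted p = 0.0492), where 3.11% of all genes were called (median 0.23, against 0.08). In P56 against P14 limma called 0 of the 10, where 0.818% of all genes were called, and edgeR 0, where 2.06% were called. Of the 10, 0 had an unadjusted p under 0.05 (median -0.14, against 0 over all tested genes). Wnk1 was highest at E18.5, as Aqp1 was, while Slc6a6 was higher in all P14 and P56 libraries than before, as Aqp5 was.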

How the data were processed

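Epithelial cells were sorted and amplified polyadenylated RNA was read as 3'SAGE tags on an Ion Proton, per the labels' protocols. Bowtie2 2.2.5, R 3.4.0 and mm10 are named, per the submitters' processing notes; the counting program, annotation, strand setting and scaling method are, in the sources used here, not given. The authors deposited a signal per gene: divided by its smallest step, each library returned whole reads for 100% of genes within 0.01 reads, so it is a tag count over 1 factor per library.

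Of 21121 genes, 12964 passed edgeR's filterByExpr by stage (minimum count 10, recovered reads). Limma-trend 3.58.1 (R 4.3.3) was fitted to log2(value + 1) with robust variances, a coefficient per stage, all 7 libraries and 2 residual degrees of freedom. Stages with a single library borrow the spread of E18.5 and P56. The pseudocount of 1 shrinks changes of genes with few reads, while ratios of means carry none. In E18.5 against the early stages the log2 change averages the log2 values of E13.5 and E15.5. It is therefore not the log2 of the ratio of means, and can be larger. E15.5 and E13.5 were compared as a ratio without a test. Intervals are at 95% and, like the floor of 3 reads, cover counting error only, since amplified reads without molecular identifiers are not independent molecules. Folds over a floor use the observed mean of the other side, without its counting error. Alternatives were edgeR 4.0.16 and DESeq2 1.42.0 on recovered reads, other pseudocounts, no filter, TMM scaling, no robust variances, fewer libraries and a replicate block. Scripts were tested on simulated data. The design allowed for raw counts or scaled values, and the limma fit for scaled values was used.

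The members, marker lists and tests were chosen with earlier results of these data known. Named were all aquaporins listed, the 5 nearest profiles per member, up to 4 called ion transport genes and 2 osmotic genes per comparison by p, and the 3 markers of each alveolar type with the highest mean value; single markers of other cell types are named to show whether those that define a type were present.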

Additional observations from a re-analysis of the deposited data

How the results depend on the processing

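Depth limits Aqp3 and Aqp4, with at most 50 and 18 reads in a library, and the 2 residual degrees of freedom limit every test. TMM scaling moved the median change of all genes by less than 0.1 and changed no call of a member. Over all settings, 287 values were unchanged in direction and call or, for counts, within 1.5 times of the main value, 24 lost a call, 7 gained one, 62 counts moved by over 1.5 times and 2 values reversed. Counts over all genes moved most. In P56 against E18.5 the 1843 calls became 679 with no filter, 1125 without robust variances and 984 with the replicate block. In E18.5 against the early stages the 3779 calls became 2443 with DESeq2. In P14 against E18.5 the 403 became 1051 with no filter, 6 without robust variances and 686 with edgeR, which also called 1 member (Aqp1, -1.68). In P56 against P14 the 106 became 800 with no filter, 267 with edgeR, 200 with DESeq2 and 0 without robust variances (1388 genes at an unadjusted p under 0.05), which left 0 members (Aqp1, -5.27). Aqp3 in E18.5 against the early stages lost its call at 1.46 with a pseudocount of 5, and at 3.01 with no filter and without robust variances. Aqp4 in P56 against P14 reversed without P56 replicate 2, to 0.034 with limma and 0.059 with edgeR. The cause of these shifts was not tested.

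Leaving out 1 of the 4 libraries of E18.5 and P56 in turn gave, with limma, 0 calls in every comparison at 1 residual degree of freedom. The members kept the direction of their log2 changes, except for Aqp4 in P56 against P14. In E18.5 against the early stages they were 8.02 to 8.20 for Aqp5, 4.98 to 5.62 for Aqp1 and 1.94 to 4.09 for Aqp3. For Aqp1 they were -7.14 to -6.49 in P56 against E18.5 and -5.27 in P56 against P14, and for Aqp4 -0.96 to 0.034 in P56 against P14. EdgeR in the same 4 fits called 1 to 2 members and 1204 to 2798 genes in P56 against E18.5, 3 members and 3542 to 4534 genes in E18.5 against the early stages, and 1 member and 128 to 745 genes in P56 against P14. In P14 against E18.5 it called 1 to 2 members and 559 to 1620 genes. Without E18.5 replicate 1 the second member was Aqp3 (-2.53 in P56 and -4.12 in P14, against E18.5), and Aqp1 was called in P14 against E18.5 at -1.96 without E18.5 replicate 1, -1.32 without E18.5 replicate 2, -1.68 without P56 replicate 1 and -1.67 without P56 replicate 2. For the counts over all genes, edgeR without E18.5 replicate 2 gave 1154 in P14 against E18.5 and 731 in P56 against P14, and without P56 replicate 2 it gave 759 and 203.

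Whether the replicate numbers of E18.5 and P56 mark pairs was not settled. The deviations of replicate 1 correlated at 0.01 (0.0098) between the stages. Only a strong shared effect would show in such a value, so it cannot decide this. With the replicate number as a block, Aqp1 remained the 1 member called in P56 against E18.5. DESeq2 gave no adjusted p for Aqp3 and Aqp4 in P14 against E18.5 and in P56 against P14.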
